A study of Mus musculus with 6 samples.

Results

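Levels of 5 genes were described in sorted kidney T cells: the receptors Slamf1, Slamf6, Slamf7 and Ly9 of the signaling lymphocytic activation molecule (SLAM) family, and Sh2d1a, which encodes SAP, the adaptor that binds their tails. They were chosen by symbol, with values of these same libraries already known, and make up 5 of the 32285 features measured. Every level and ratio below is therefore a description, and none is a test. The mice were male wild-type C57BL/6J, 7 to 8 weeks old. In the control group the kidneys were normal, and in the ischemia-reperfusion (IR) group both renal pedicles had been clamped for 30 min, with serum creatinine read at 24 h. From each group, CD45+ cells with an αβ TCR were sorted by CD4 and CD8 into a CD4 fraction, a CD8 fraction and a double negative (DN) fraction with neither marker, and each of the 6 sorts gave 1 single-cell RNA sequencing library. The number of mice behind a library and the time of harvest were not given in the sources used here.

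SLAM receptors sit on the surface of T cells and other blood cells, and most of them bind the same receptor on the neighboring cell. Their tails carry tyrosine motifs that recruit SAP, a small adaptor consisting almost wholly of an SH2 domain, which brings in the kinase Fyn and keeps inhibitory phosphatases away. The pathway is known for the development of natural killer T (NKT) cells and for the help that T cells give to B cells. Slamf1 encodes CD150, Slamf6 encodes Ly108, Slamf7 encodes CRACC (which couples to the adaptor EAT-2 more than to SAP), and Ly9 encodes CD229.

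The upstream sequences of the 3 receptors that differed most between libraries are shown first: Slamf6, which was low in DN cells, and Slamf1 and Slamf7, which were both lower in the IR libraries. RefSeq (GRCm38.p6) windows were found for 3 of the 5 genes, and Ly9 and Sh2d1a had no entry. Each window runs 5′ to 3′ on the strand of the gene from base -250 to base -11 before the RefSeq start, and that of Slamf7 lies inside the span of the gene in GENCODE M21 (chr1:171632403-171653035), whose start is farther upstream. Capitals mark matches, on either strand, to 1 of 6 short motifs of T cell transcription factors, which were chosen after the levels were seen and are spelled out after the sequences.
Slamf6, chr1:171917212-171917451, plus strand: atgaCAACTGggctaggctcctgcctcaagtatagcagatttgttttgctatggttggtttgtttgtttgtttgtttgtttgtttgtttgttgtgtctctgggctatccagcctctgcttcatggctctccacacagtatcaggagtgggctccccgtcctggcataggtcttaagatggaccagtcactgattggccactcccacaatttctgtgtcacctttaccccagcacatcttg
Slamf1, chr1:171766882-171767121, plus strand: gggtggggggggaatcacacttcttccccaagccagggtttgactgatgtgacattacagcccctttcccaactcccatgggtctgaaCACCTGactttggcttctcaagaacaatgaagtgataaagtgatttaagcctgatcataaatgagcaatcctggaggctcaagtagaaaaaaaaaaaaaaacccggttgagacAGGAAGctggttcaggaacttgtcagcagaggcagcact
Slamf7, chr1:171649010-171649249, minus strand: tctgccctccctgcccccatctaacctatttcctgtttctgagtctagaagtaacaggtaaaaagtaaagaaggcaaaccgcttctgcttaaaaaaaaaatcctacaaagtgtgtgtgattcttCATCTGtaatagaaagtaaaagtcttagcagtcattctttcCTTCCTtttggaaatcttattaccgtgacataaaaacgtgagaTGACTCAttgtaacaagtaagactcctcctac
All 3 windows held an E-box (CANCTG), as did 43.6% of the 32851 windows of this length. The ETS letters AGGAAG lay in the Slamf1 and Slamf7 windows and in 28.4% of all windows. AP-1 was searched as TGACTCA, which was found in the Slamf7 window from base -42 to base -36 and in 4.35% of all windows. The TCF/LEF letters CTTTGA are held by 13.5% of all windows and were not in these 3. Likewise absent were the RUNX letters TGTGGT, held by 13.6% of windows, and the GATA letters AGATAA, held by 9.74%. A match is a string of letters and was not tested as a binding site.

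Values are given as CPM: the unique molecular identifiers (UMIs) of a gene, summed over the kept cells of a library, for each 1000000 UMIs of the retained genes. The libraries kept 4120 to 10175 cells and 4486421 to 60821181 retained UMIs, with a median of 6626 to 8362 UMIs per cell in control and 1450 to 2351 in IR. Cd4 was at 210.5 and 145 CPM in the control and IR CD4 libraries and under 0.5 CPM in the other 4, and Cd8a was at 867 and 393 CPM in the CD8 libraries and under 0.3 CPM elsewhere. A Cd3d, Cd3e or Cd3g UMI was present in 90.5% to 99.2% of kept cells. Of the markers of other cells, 4 lists were higher in IR in each subset: 3 erythroid genes summed to 0.965 to 1.13 CPM in control and 18.9 to 26.7 CPM in IR, 4 B cell genes to 1.91 to 11.8 and 8.10 to 24.7 CPM, and 6 myeloid genes (mostly Cst3) to 96.4 to 121 and 153 to 154 CPM. Neutrophil genes went from 8.96 to 19.6 CPM in CD4, from 0 to 3.97 CPM in CD8 and from 0.0164 to 0.892 CPM in DN cells. The NK genes (Ncr1, Eomes, Klra8) went from 60.7 to 29.3 CPM in CD8 and from 21.6 to 10.7 CPM in DN cells. In CD4 cells they went the other way, from 1.30 to 2.51 CPM. The CD8 sum was mostly Eomes (60.2 to 28.4 CPM) and the DN sum mostly Ncr1 (15.3 to 6.69 CPM). Plasma cell genes went from at most 0.219 to at most 0.0643 CPM. Platelet genes summed to 0.148 to 0.373 CPM in control and 0.153 to 9.14 CPM in IR, endothelial genes (mostly Pecam1) to 45.5 to 130.1 and 50.4 to 104 CPM, tubule genes to 1.74 to 2.68 and 2.14 to 3.12 CPM, and gamma delta genes to 10.7 to 66.4 and 6.87 to 65.1 CPM. Their part in the differences between kidneys was not tested. Libraries of 1 condition shared 97 to 168 barcode sequences per pair, against 8 to 33 across conditions. With 1 library per group no difference has a replicate check, and the 95% intervals given cover counting error only. Matrix headers name Cell Ranger 5.0.1 for control and 6.0.1 for IR, so condition and software version cannot be told apart.

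Slamf6 was the member with the widest difference between subsets. It was at 66.6 CPM (64.4 to 68.9) in control CD4, 94.3 CPM (91.5 to 97.2) in control CD8 and 19.0 CPM (17.9 to 20.1) in control DN cells. The IR libraries held 83.7 CPM (79.2 to 88.3) in CD4, 77.4 CPM (70.8 to 84.5) in CD8 and 17.2 CPM (13.5 to 21.5) in DN cells. Both DN libraries lay below all 4 CD4 and CD8 libraries, and the DN intervals overlapped each other and none of the rest. On the log2 scale, control DN cells were at -1.81 (-1.91 to -1.71) against CD4 and -2.31 (-2.41 to -2.22) against CD8. The IR values were -2.29 (-2.64 to -1.95) and -2.17 (-2.54 to -1.83). These are 3.504-fold and 4.96-fold lower levels in control DN cells and 4.88-fold and 4.51-fold lower levels in IR DN cells. Over all barcodes and all features, without any filter, the levels were 54.8, 67.4 and 16.7 CPM in control and 53.5, 42.9 and 11.4 CPM in IR, with DN lowest again. The order of CD4 and CD8 differed between kidneys, with a log2 ratio of CD4 over CD8 of -0.50 in control and 0.11 in IR, and the IR intervals of the 2 subsets overlapped.

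Slamf1 was highest in CD4 cells of both kidneys. In the control kidney 241 CPM were found in CD4, 133 in CD8 and 119 in DN cells, and the IR cells held 73.1, 37.7 and 29.0 CPM in the same order. All 3 IR levels lay below all 3 control levels. The IR CD8 interval (33.2 to 42.7 CPM) and the IR DN interval (24.2 to 34.4 CPM) overlapped, whereas in control CD8 and DN did not. DN cells were lower than CD4 cells by log2 -1.02 (-1.06 to -0.98) in control and -1.33 (-1.61 to -1.07) in IR. The control value lies at the 2-fold line and was under it with the top 5% of barcodes kept (-0.99) or with no cell filter (-0.99). IR over control was -1.72 (CD4), -1.82 (CD8) and -2.04 (DN) on the log2 scale.

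Slamf7 ran in another order, lowest in CD4 cells. Its control levels were 123 CPM in CD4, 221 in CD8 and 183 in DN cells, and its IR levels 38.6, 61.8 and 55.9 CPM. Again the 3 IR levels lay below the 3 control levels. The IR CD8 and DN intervals (56.0 to 68.2 and 49.2 to 63.3 CPM) overlapped, and CD4 cells were below both. IR over control was -1.67, -1.83 and -1.71 in the 3 subsets, with overlapping intervals.

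**Figure D1:**
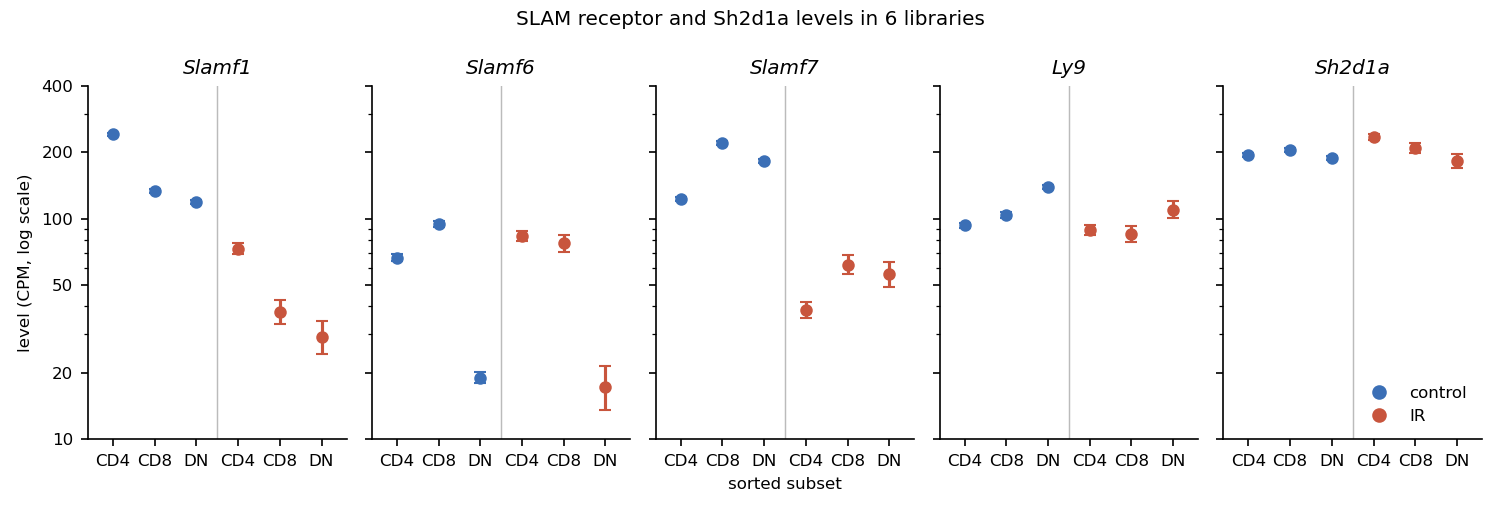
Level of each gene (CPM, log axis) by sorted subset in the control (blue) and IR (red) libraries, with 95% Poisson intervals of the count. Slamf6 falls to 19.0 and 17.2 CPM in the DN libraries, and the IR points of Slamf1 and Slamf7 lie below the control points.

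Ly9 and Sh2d1a stayed within 2-fold in every comparison. Ly9 was at 93.1 CPM in control CD4, 104 in control CD8 and 139.7 in control DN cells, and at 88.6, 85.2 and 109.9 CPM in IR. It was highest in DN cells of both kidneys, by log2 0.58 and 0.42 against CD4 and CD8 in control and 0.31 and 0.37 in IR, while the IR CD4 and CD8 intervals overlapped. Ly9 lies inside the annotated span of Cd244a on the opposite strand. The pair shares 0 exonic bases, but reads from introns could not be split if the counting included them without strand. Sh2d1a was at 194, 204 and 188 CPM in control and 235, 209 and 183 CPM in IR. The intervals of the DN libraries (185 to 192 and 170.5 to 196 CPM) overlapped, as did those of the CD8 libraries.

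The counts of members past 2-fold were read beside those of all genes reaching 10 CPM in the higher library. In control DN over CD4, 2 of 5 members (Slamf1, Slamf6) were lower, as were 1.37% of all genes, and 0 were higher, against 1.35%. In control DN over CD8, 1 member (Slamf6) was lower against 3.03% of genes, and 0 were higher against 3.53%. IR DN over CD4 gave 2 lower members (Slamf1, Slamf6) with 2.15% of genes lower and 5.9% higher. IR DN over CD8 gave 1 (Slamf6), with 3.96% of genes lower and 7.3% higher. Slamf6 was thus lower in DN cells than in both other subsets, which held for 0.917% of genes in control and 1.44% in IR. Between CD4 and CD8 cells 0 members passed, against 2.61% of genes higher and 1.74% lower in control CD4 and 3.42% higher and 4.41% lower in IR CD4. The nearest were Slamf1 (log2 0.86 and 0.95) and Slamf7 (-0.85 and -0.68). Since the genes were chosen with these contrasts known, nothing is read from the counts.

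In IR over control, Slamf1 and Slamf7 were lower in all 3 subsets, which held for 6.39% of genes. Past 2-fold, 14.8% of genes were lower and 7.94% higher in CD4, 16.9% and 8.66% in CD8, and 10.2% and 9.34% in DN cells. The median ratio over all genes was itself below 0, at -0.26, -0.36 and -0.24. After centring on the median of genes of like intronic length, in 20 bins, Slamf1 was at -1.39, -1.37 and -1.71 and Slamf7 at -1.54, -1.55 and -1.51. Slamf6 was at 0.33 (0.24 to 0.42) in CD4, -0.29 (-0.42 to -0.15) in CD8 and -0.15 (-0.50 to 0.19) in DN cells. Sh2d1a was at 0.27, 0.03 and -0.04, and Ly9 at -0.07, -0.29 and -0.35. With ribosomal protein genes, mitochondrial genes and Malat1 kept in the totals the CD4 ratios of Slamf6 and Sh2d1a turned to -0.02 and -0.08, so no direction is given for them. Fewer cells that hold a transcript and fewer transcripts per cell cannot be told apart in these sums.

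**Figure D2:**
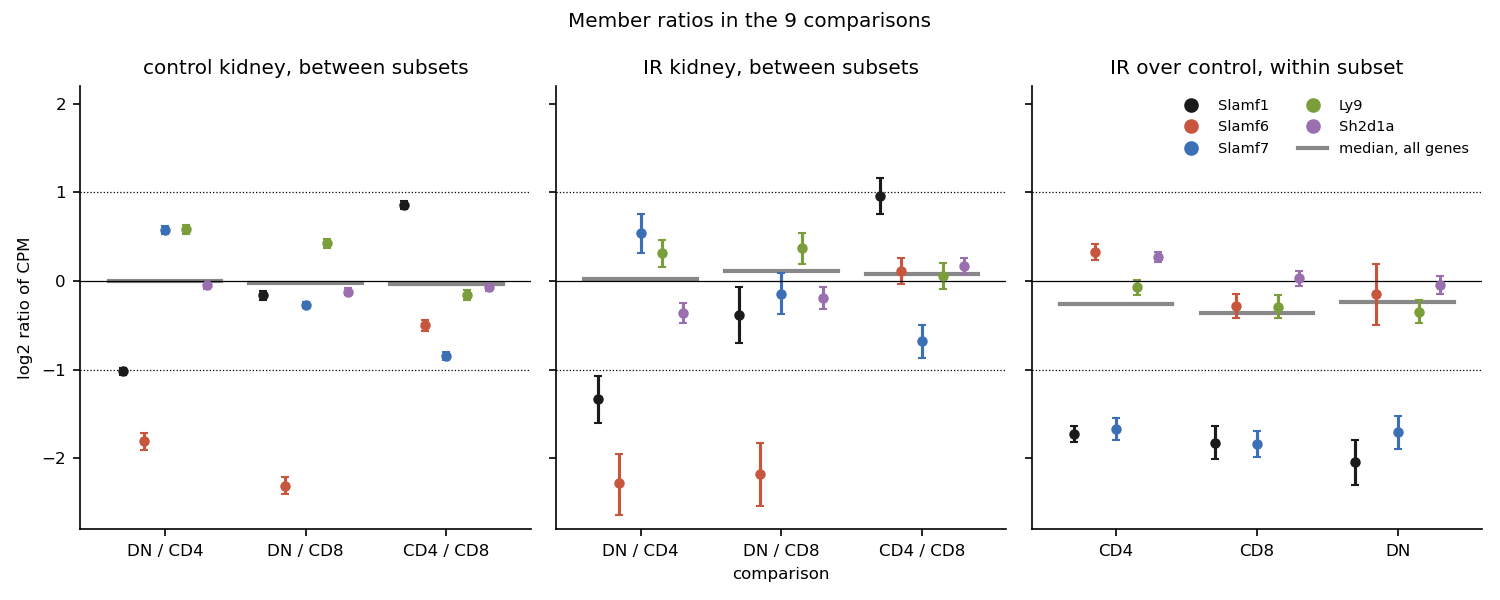
Log2 ratio of CPM for the 5 genes in the 9 comparisons with 95% counting intervals. Gray bars mark the median over all genes at 10 CPM or more and dotted lines mark 2-fold. Slamf6 is below -1.8 in all 4 comparisons of DN cells, and Slamf1 and Slamf7 are below -1.6 in all 3 comparisons of IR with control.

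Shares of cells with a UMI were compared after each cell was thinned to 1000 UMIs. Slamf6 was found in 4.98% (4.54 to 5.44) of control CD4, 5.79% (5.31 to 6.30) of control CD8 and 1.34% (1.11 to 1.60) of control DN cells, and in 4.51%, 4.17% and 0.810% of the IR cells. Before thinning the shares were 19.8%, 24.8% and 8.12% in control and 10.7%, 7.10% and 1.75% in IR. Of the barcodes set aside as non-T, 1 of 76 (1.32%, 0.0333 to 7.11) had a Slamf6 UMI at this depth, and with so few barcodes that interval spans all 6 Slamf6 shares, so these shares are not separated from background at this depth. Median depth was 8374 and 1516 UMIs in the DN cells and 1938.5 in the set-aside barcodes. Slamf1 was found in 16.3%, 8.91% and 8.31% of control and 4.39%, 2.11% and 1.94% of IR cells, against 0 of 76 set-aside barcodes, an interval up to 4.74%. Slamf7 was found in 9.12%, 14.5% and 12.7% of control cells. Its IR shares of 2.41%, 3.22% and 4.11% lie around the 3.95% of set-aside barcodes (3 of 76, 0.822 to 11.1). Before thinning, the 5 Slamf7 UMIs of set-aside barcodes came from the 13 of the control libraries, and the 81 of the IR libraries held 0. Sh2d1a was found in 12.8%, 13.2% and 12.9% of control and 13.2%, 10.2% and 12.3% of IR cells, and Ly9 in 4.46% to 10.3% over the 6 libraries, each against 1 of 76 set-aside barcodes. The interval of that 1 barcode, up to 7.11%, also holds 4 of the 6 Ly9 shares (4.46% to 6.97%), and that of Slamf7 holds the control CD4 share. The removed genes took 21.02% to 26.6% of control UMIs and 30.2% to 45.0% of IR UMIs, so thinned cells of the 2 kidneys are not matched in retained UMIs. At 1000 UMIs most cells held none of the 5 genes, from 58.8% in control CD4 to 78.3% in IR CD8.

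**Figure D3:**
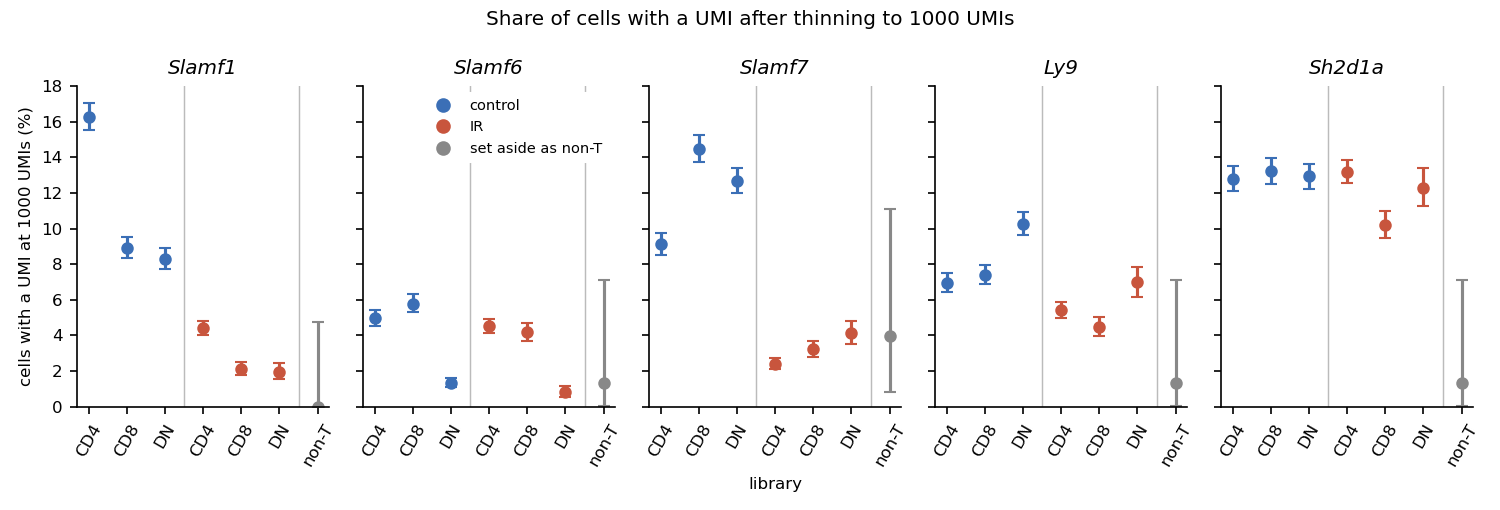
Share of cells with at least 1 UMI of each gene (%) after thinning to 1000 UMIs, in the control (blue) and IR (red) libraries and in the 76 set-aside barcodes (gray), with 95% Clopper-Pearson intervals. All 6 Slamf6 shares, 4 of 6 Ly9 shares, the IR shares of Slamf1 and Slamf7 and the control CD4 share of Slamf7 lie within the wide gray intervals, and Sh2d1a lies between 10.2% and 13.2% in all 6 libraries.

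In CD4 and CD8 cells, Slamf6 and Slamf7 differed in opposite directions with Ccr7. Ccr7 encodes the receptor that takes naive and central memory T cells into lymph nodes. Control CD4 cells with a Ccr7 UMI held 225 CPM of Slamf6 against 53.3 CPM in the rest, and control CD8 cells 203 against 66.2 CPM. In IR the values were 126 against 73.8 CPM in CD4 and 104 against 62.3 CPM in CD8. Slamf7 ran the other way, at 25.5 against 131 CPM and 63.0 against 261 CPM in control CD4 and CD8, and 5.39 against 46.4 CPM and 15.8 against 87.6 CPM in IR. Slamf1 was also lower in the cells with Ccr7, at 91.9 against 254 CPM in control CD4 and 46.7 against 156 CPM in control CD8. None of the interval pairs overlapped.

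**Figure D4:**
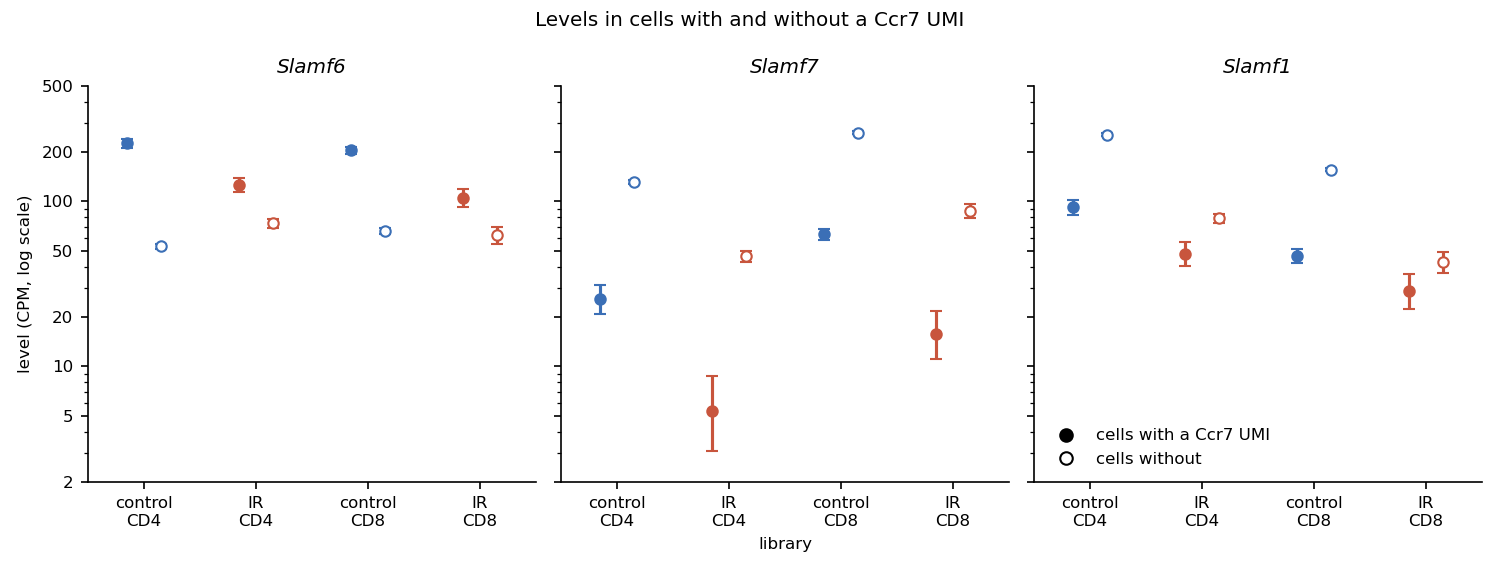
Level of Slamf6, Slamf7 and Slamf1 (CPM, log axis) in CD4 and CD8 cells with (filled) and without (open) a Ccr7 UMI, control in blue and IR in red, with 95% Poisson intervals. Slamf6 is higher and Slamf7 and Slamf1 are lower in the cells with Ccr7 in all 4 libraries.

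Cells with a Ccr7 UMI made up 7.51% of control and 19.9% of IR CD4 cells, and 16.8% of control and 37.0% of IR CD8 cells, although the IR cells were shallower. Those cells were also left out of every library, a choice made after the data were seen. Slamf7 in IR over control was then at log2 -1.50, -1.58 and -1.70 in CD4, CD8 and DN cells, and Slamf1 at -1.68, -1.86 and -2.05. The gate misses Ccr7 cells without a UMI, more so in the shallower IR libraries. The part of the Ccr7 share in the differences between kidneys was not tested. Within the cells that had Ccr7, Slamf7 was at -2.24 (-3.11 to -1.47) in CD4 and -2.00 (-2.52 to -1.52) in CD8, on 16 and 37 IR UMIs. Slamf1 was at -0.94 (-1.23 to -0.66) and -0.71 (-1.10 to -0.34), short of 2-fold but with intervals that cross it. With the Ccr7 cells left out, Slamf6 in DN cells was -1.52 and -1.84 against CD4 and CD8 in control, and -2.11 and -1.87 in IR. For Slamf6 itself, IR over control was -0.84 (CD4) and -0.96 (CD8) in cells with Ccr7 but 0.47 and -0.09 in cells without.

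Tcf7 encodes the transcription factor TCF1 of naive and memory T cells. Slamf6 was higher in cells with a Tcf7 UMI in all 3 control libraries, at 90.1 against 41.1 CPM in CD4, 121 against 45.7 CPM in CD8 and 33.1 against 12.0 CPM in DN cells. In IR CD4 and CD8 cells the levels were 128 against 60.6 CPM and 95.1 against 68.4 CPM. IR DN cells with Tcf7 held 12 Slamf6 UMIs, too few to separate 29.1 from 16.0 CPM. Tcf7 itself was at 209.5 CPM in control CD4, 302 in control CD8 and 83.6 in control DN cells, and at 361, 455 and 87.6 CPM in IR.

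Other markers split the DN cells. Pdcd1 encodes the inhibitory receptor PD-1, and control DN cells with a Pdcd1 UMI held 54.6 CPM of Slamf6 against 15.1, 199 CPM of Slamf1 against 110.5, and 313 CPM of Sh2d1a against 174. Only 92 IR DN cells had a Pdcd1 UMI, and they held 0 Slamf6 UMIs. Klrb1c encodes NK1.1, a receptor of NK and NKT cells, and was found in 44.7% of control and, at lower depth, 18.5% of IR DN cells. In those cells Slamf1 was lower, at 72.6 against 159 CPM in control and 7.64 against 34.5 CPM in IR, where it rests on 7 UMIs. DN cells with Fcer1g, the Fc receptor gamma chain, held 58.3 against 141 CPM of Slamf1 in control. Control DN cells with Mki67 or Top2a, which mark dividing cells, held 193 against 106 CPM of Slamf1 and 37.9 against 15.7 CPM of Slamf6. In 3 of these splits Slamf7 was higher in the same control cells as Slamf6, at 235 against 177 CPM by Pdcd1, 215 against 177 CPM by Mki67 or Top2a, and 204 against 175 CPM by Fcer1g. By Klrb1c, Slamf6 was at 14.7 against 22.7 CPM and Slamf7 at 186 against 179.6 CPM, and by Tcf7 Slamf7 was at 182 against 183 CPM. Ly9 differed by at most 0.14 on the log2 scale over the 5 splits of control DN cells.

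In CD4 cells, those with Foxp3, the regulatory T cell factor, held less Slamf7 (34.8 against 127 CPM in control, 17.7 against 39.3 CPM in IR). Zbtb16 encodes PLZF of innate-like T cells. Control CD4 cells with a Zbtb16 UMI held 36.9 against 84.0 CPM of Slamf6, 169.9 against 283 CPM of Slamf1 and 244 against 165 CPM of Sh2d1a. For Sh2d1a this was not seen in IR CD4 cells, with 213 against 237 CPM and overlapping intervals. CD8 cells with a Gzmk or Gzma UMI held more Slamf7 (267 against 179 CPM in control, 145 against 46.8 CPM in IR), more Sh2d1a (253 against 161 and 316 against 189 CPM) and less Slamf6 (65.8 against 120.2 and 36.6 against 84.9 CPM). Control CD8 cells with a Pdcd1 UMI held less Slamf6 than the rest (74.2 against 99.9 CPM), opposite to control DN cells. The IR CD8 values were 42.5 against 78.2 CPM, on 6 UMIs and with overlapping intervals. A gate on 1 UMI misses cells that express the gene at low depth, so these are differences between detected and undetected cells.

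The same pair was compared in single cells thinned to 1000 UMIs, where the Slamf6 shares as a whole were not separated from those of set-aside barcodes. A Slamf6 UMI was found in 2.63% (1.66 to 3.96) of control CD4 cells with Slamf7 and in 5.21% (4.75 to 5.71) of the rest, and in control CD8 cells in 3.47% (2.53 to 4.63) against 6.18% (5.64 to 6.75). In IR CD4 cells the shares were 1.65% (0.452 to 4.18) and 4.58% (4.17 to 5.01), with intervals that meet. In IR CD8 cells it was 7 of 200 cells, with an interval of 1.42% to 7.08% that held the 4.20% of the rest, and in control DN cells 0.979% (0.490 to 1.74) against 1.39%, which overlapped. Slamf7 was in turn found in 17.97% (15.3 to 20.9) of control CD8 cells with Slamf1 and in 14.1% (13.4 to 14.9) of those without. The cells share depth and library, and no p is given.

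Of 7 other SLAM receptors and adaptors, Cd48, Cd84 and Cd244a were measured at 10 CPM or more in at least 1 library. Cd48, a ligand of the family, was at 289, 394 and 269 CPM in control and 239, 283 and 179 CPM in IR CD4, CD8 and DN cells. Cd84 was at 253, 185 and 258 CPM in control and 106, 63.1 and 111 CPM in IR, past 2-fold lower in all 3 subsets. Cd244a, the receptor for CD48, was at 1.68, 13.2 and 17.4 CPM in control and 1.35, 2.75 and 3.34 CPM in IR, where it rests on 15 to 21 UMIs a library. Slamf8, Slamf9, Sh2d1b1 and Sh2d1b2 (the last pair encode EAT-2 adaptors) stayed under 1 CPM in every library. In the list of 7, IR over control had 2, 3 and 3 genes at 10 CPM in CD4, CD8 and DN cells, of which 1, 2 and 2 were past 2-fold lower and 0 higher. Of all genes, 14.8%, 16.9% and 10.2% were lower and 7.94%, 8.66% and 9.34% higher.

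The 17 genes fixed as SLAM signaling partners all reached 10 CPM. Between subsets, where 1.35% to 7.3% of all genes passed 2-fold in a direction, the counts were 0 of 17 in DN over CD4 in either kidney, 1 higher (Dok2, an adaptor that restrains Ras, 269 against 129 CPM) and 1 lower (Ptpn6, the phosphatase SHP-1, 55.8 against 132 CPM) in control DN over CD8, and 2 higher and 1 lower in IR DN over CD8. Control CD4 over CD8 gave 0 higher and 1 lower and IR gave 2 higher and 0 lower. In IR over control 5 were lower and 1 higher in CD4, 7 lower in CD8 and 3 lower in DN cells. Of all genes, 14.8%, 16.9% and 10.2% were lower there and 7.94%, 8.66% and 9.34% higher. The list medians were -0.18, -0.85 and -0.57 beside the all-gene medians of -0.26, -0.36 and -0.24. Rasa1, a Ras GTPase activator, Prkcq, the kinase PKC-theta, and Inpp5b, an inositol phosphatase, were lower in all 3 subsets. Fyn, the kinase that SAP recruits, was at 725, 715 and 593 CPM in control and 304, 292 and 300.2 CPM in IR, past 2-fold lower in CD4 and CD8 and short of it in DN cells.

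Of the 10 genes listed for SAP-dependent T cell programs, control DN over CD8 gave 4 higher and 2 lower of 7 genes at 10 CPM, and IR DN over CD8 gave 4 and 2 of 8, with list medians of 1.65 and 0.86 beside -0.02 and 0.11 over all genes. Of all genes, 3.53% were higher and 3.03% lower in the control comparison, and 7.3% and 3.96% in the IR one. Maf, Icos, Zbtb16 and Il4 were the 4 higher genes. Il4, the cytokine, was at 0.154 CPM in control CD8 cells against 94.3 CPM in CD4 and 116 in DN cells, and Zbtb16 at 1.97 against 202 and 258 CPM. CD4 over CD8 gave 4 higher and 1 lower in control and 4 higher and 0 lower in IR, beside 2.61% and 1.74%, and 3.42% and 4.41%, of all genes. DN over CD4 gave 1 lower gene in each kidney, Tcf7, and 0 higher, beside 1.37% and 2.15% of all genes lower and 1.35% and 5.9% higher. IR over control gave 1 higher and 1 lower in CD4, 1 and 2 in CD8, and 0 and 1 in DN cells, beside all-gene shares of 7.94% and 14.8%, 8.66% and 16.9%, and 9.34% and 10.2%. Zbtb16 was the lower gene in CD4 (202 to 76.9 CPM) and DN cells (258 to 125 CPM), and Cxcr5, a follicular homing receptor, was the higher gene in CD4 (3.99 to 14.97 CPM) and CD8 cells (8.67 to 26.4 CPM). Pdcd1 (64.7 to 21.1 CPM) and Maf (72.2 to 31.1 CPM) were the lower genes in CD8 cells.

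The 7 SLAM receptor genes measured at 10 CPM or more lie side by side on chromosome 1 (chr1:171559193-171953170, 394 kb, GRCm38), and Sh2d1a lies apart at chrX:42502453-42529330. Within 500 kb of the cluster 30 of 79 annotated genes reached 10 CPM, the 7 receptors and 23 others. Beside Slamf6, which was at -2.31 in control DN over CD8, the nearest receptor Cd84 was at 0.48 and the next, Slamf1, at -0.16. Of the 23 others, 1 was lower in every DN comparison, the antisense gene Gm37065, at -1.84 and -2.61 in control and -3.13 and -3.15 in IR against CD4 and CD8. Its control levels were under 10 CPM, at 5.30 in CD4, 9.04 in CD8 and 1.48 in DN cells, and its IR levels 29.2, 29.6 and 3.34 CPM. It overlaps the first part of Slamf6 on the other strand with 0 shared exonic bases, and since the use of strand in counting was not stated, the 2 genes may share reads. Their ratios differed in IR over control, at 2.46, 1.71 and 1.18 for Gm37065. Fcer1g, also in this window, was higher in DN cells (193 against 13.5 and 13.2 CPM in control). In IR over control the 7 receptors had a median of -0.32 in CD4 (the value of Cd244a, which was under 10 CPM there), -1.55 in CD8 and -1.22 in DN cells, beside 0.01, -0.17 and -0.06 for the 23 neighbors.

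**Figure D5:**
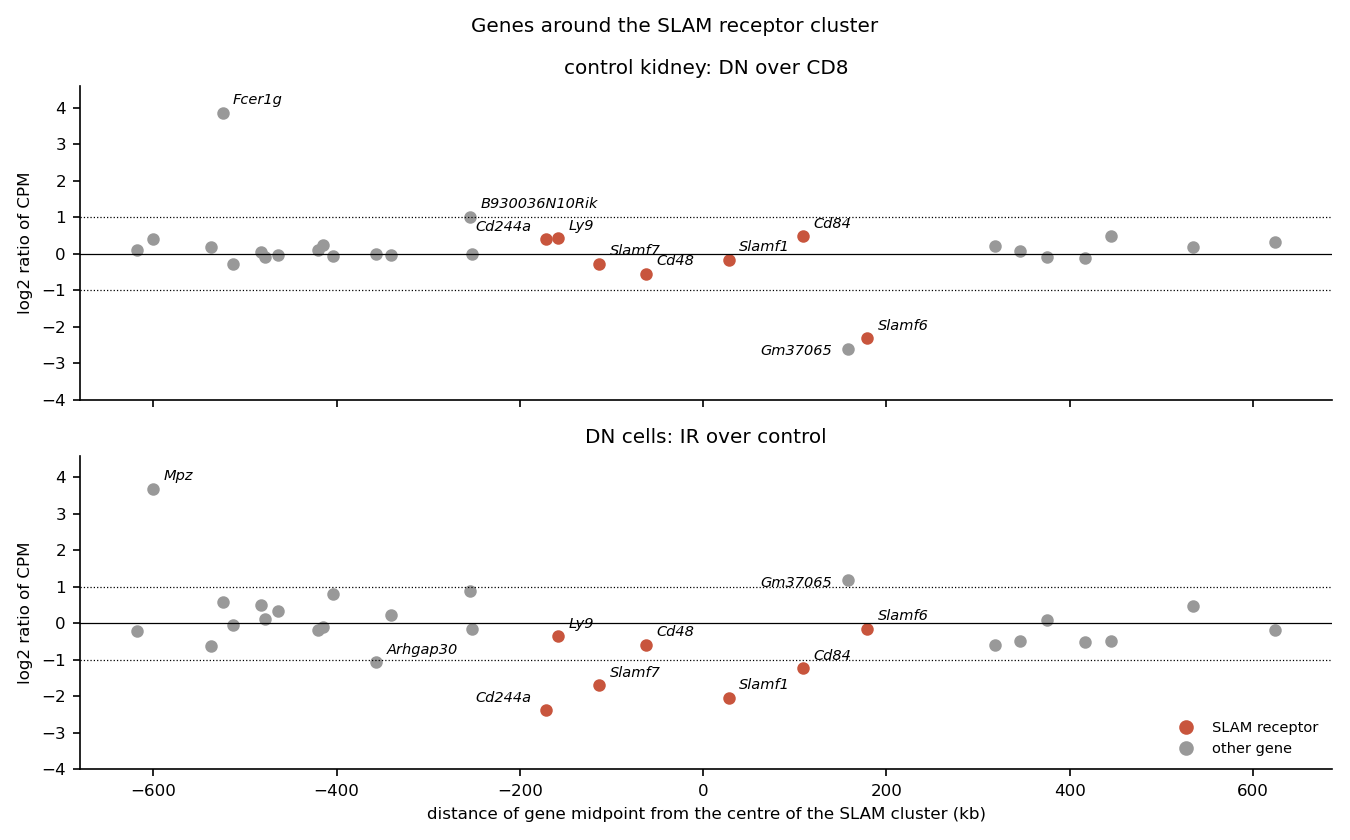
Log2 ratio of CPM for the 30 genes at 10 CPM or more within 500 kb of the SLAM receptor cluster, by distance of the gene midpoint from the cluster centre (kb). Receptors are red and other genes gray, with 2-fold dotted. Slamf6 and Gm37065 are the lowest points in control DN over CD8 (top), and 4 of 7 receptors are past 2-fold lower in IR over control DN cells (bottom).

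The 3 genes most like each member over the 6 libraries were found among 6908 genes by the root mean square difference of centred log2 CPM. For Slamf7 they included Atg4a (0.17) and Atp8b4 (0.25). For Slamf6 they were Zc3h12d (0.31), Tcf7 (0.33) and Cpm (0.34), and for Slamf1 Myo3b (0.29), Nxpe3 (0.31) and Heg1 (0.31). Ly9 was nearest to Lrif1 (0.08), Ints3 (0.08) and Fam204a (0.09). Sh2d1a, whose levels varied least, was nearest to Gm16286, H13 and Mdh2 (0.03 each). Among the members themselves the closest pair was Ly9 and Sh2d1a (0.33) and the farthest Slamf6 and Slamf7 (1.41). Genes that vary little are close on this measure whatever their order. Ly9 was highest and Sh2d1a lowest in DN cells of both kidneys. With 6 libraries these distances describe likeness only.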

How the data were processed

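The authors deposited raw UMI counts per gene and barcode, made with 10x Genomics 3′ v3.1 chemistry and Cell Ranger (6.0.1 per the labels, default settings) on mm10, with no normalization and 1 library for each of the 6 sorts. The sources used here do not say whether introns and strand entered the counts.

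Following the filters of the study, barcodes with under 500 features or over 20% mitochondrial UMIs were left out, and the top 5% by UMIs in each library were dropped as likely doublets; no doublet caller was run. A barcode with none of 6 T cell genes and 3 or more UMIs over 26 other-lineage markers was set aside as non-T (94 in all). This left 48185 of 54039 barcodes. Counts were summed per library and scaled to CPM after removal of 104 mitochondrial, ribosomal protein and Malat1 features. Past 2-fold means at least 10 CPM in the higher library, and under 3 counts a floor of 3 was used. No test was run: each group is 1 library, and the 3 subsets are different cells, not replicates. Intervals are exact 95% Poisson, binomial on the total for ratios, and Clopper-Pearson for shares. For thinned shares 34 to 566 cells under 1000 UMIs were left out per library. Gene positions came from GENCODE M21 (32158 of 32285 features matched). The counting rules were run on simulated Poisson counts with planted changes. The simulation had no spread between cells or libraries, so it checks the arithmetic only.

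The members and gene lists were chosen with earlier results of these data known. Genes named are the members, the 3 lists, genes near the cluster, the 3 nearest patterns, gate genes and lineage markers. A gene of the nearest patterns is not reported here. Alternatives changed cell filters, totals, TMM scaling (edgeR 4.0.16, R 4.3.3), depth, thresholds and intron centring. Scripts used Python 3.11.15, numpy 2.4.6, scipy 1.17.1, pandas 2.3.3 and matplotlib 3.10.9.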

Additional observations from a re-analysis of the deposited data

Results flagged for a closer look

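The Slamf6 ratios of IR over control had opposite signs in CD4 and CD8 cells, and neither sign held under every alternative. The value was 0.33 on the log2 scale in CD4 cells (66.6 to 83.7 CPM) and -0.29 in CD8 cells (94.3 to 77.4 CPM), and -0.15 with an interval across 0 in DN cells. The difference was not tested, since each group is 1 library. The median over all genes was -0.26 in CD4 and -0.36 in CD8, so relative to it both values lie above. Retaining the removed features in the total brought the CD4 value to -0.02, and centring by intronic length brought the CD8 value to 0.17. In cells with a Ccr7 UMI the ratio was -0.84 in CD4 and -0.96 in CD8. In cells without, it was 0.47 (0.36 to 0.58) in CD4 and -0.09 (-0.28 to 0.10) in CD8.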

How the results depend on the processing

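The number of members past 2-fold in each of the 9 comparisons was recomputed under 15 alternatives, and 16 for IR over control, of which leaving out cells with Ccr7 was chosen after seeing the data. For control DN over CD4 the count of 2 became 1 with no cell filter, with the top 5% of barcodes kept and at 3-fold, each time without Slamf1. IR DN over CD4 went from 2 to 1 at 3-fold. CD4 over CD8 went from 0 to 2 (Slamf1 higher, Slamf7 lower) at 1.5-fold in both kidneys, and in IR to 1 with the removed features kept in the total (Slamf1 at 1.12). All other counts were within 1.5 times of the reported ones. Of 138 recomputed ratios of members past 2-fold, 136 stayed past it and 0 changed sign, and of 372 others 1 passed it. Of all 510 recomputed ratios 110 moved beyond the counting interval, and some under 2-fold changed sign (Slamf6 in IR over control CD8 from -0.70 to 0.17). For Slamf6 in DN cells the ratios ranged from -1.95 to -1.52 and -2.35 to -1.84 in control and -2.61 to -2.11 and -2.63 to -1.83 in IR (against CD4 and CD8). In IR over control Slamf1 ranged from -2.24 to -1.37 and Slamf7 from -2.25 to -1.50 over the 3 subsets. Keeping the removed features moved the all-gene median of IR over control to -0.63, -0.79 and -0.42 in CD4, CD8 and DN cells, and TMM scaling moved that of IR DN over control DN to -0.39. Relative to those medians Slamf1 and Slamf7 stayed lower. Of 60 recomputed shares of cells, 59 moved beyond their intervals, since a share depends on depth. No paired analysis was run, since the labels number no replicates and the IR and control libraries of a subset share only the sorted cell type. Depth limits Slamf6 and Slamf1 in IR DN cells most, with 77 and 130 UMIs.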

Other observations

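The lower Slamf1 level in IR DN cells was found on both sides of the NK1.1 split. IR over control was -3.25 (-4.57 to -2.20) on the log2 scale in DN cells with a Klrb1c UMI and -2.21 (-2.48 to -1.95) in those without. Slamf7 was at -1.29 (-1.65 to -0.95) and -1.82 (-2.05 to -1.61) in the same cells, with overlapping intervals, as were those of Slamf1. For Slamf6 both intervals held 0. The share of DN cells with Klrb1c differed between the kidneys, and it was read at different depths.

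Sh2d1a, nearly level over the 6 libraries, varied within them. IR CD4 cells with a Foxp3 UMI held 353 CPM (303 to 409) against 231 CPM (223 to 239) in the rest, while in control CD4 cells the values of 213 and 194 CPM had overlapping intervals. Control CD8 cells with Pdcd1 held 262 CPM against 189 CPM, and the IR values were 354 against 205 CPM on 50 UMIs. Among control DN cells thinned to 1000 UMIs, Sh2d1a was found in 22.7% (15.5 to 31.3) of the 119 cells with a Slamf6 UMI and in 12.8% (12.1 to 13.5) of those without. The shares were 16.4% (13.3 to 19.9) against 13.0% (12.3 to 13.8) in control CD8, 14.5% against 12.7% in control CD4, 14.4% against 13.1% in IR CD4 and 10.0% against 10.2% in IR CD8 cells, and in IR DN cells 6 of 30 against 12.2%, all with overlapping intervals.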
